A study of Mus musculus with 9 samples.

Results

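The cytosolic ribosomal protein genes encode the proteins of the small (Rps) and large (Rpl) ribosomal subunits, and they were followed here in the hippocampus of mice carrying expanded CTG repeats. Members were chosen by symbol alone, as Rps or Rpl with a number and an optional a, x or l suffix, plus Rpsa, Rplp0, Rplp1 and Rplp2, with symbols marked as pseudogenes left out. This rule took 84 of the 24411 genes listed for each mouse. All 9 mice were male wild-type C57BL/6J animals of 10 weeks by their labels, so each group is a model made by gene transfer and not by a germline change. Adeno-associated virus serotype 9 (AAV9) was injected into CA1 of both hippocampi and delivered Egfp with either 10 or 300 CTG repeats in its 3′-UTR, which is transcribed into CUG repeat RNA. There were 3 groups of 3 mice: CUG10 (10 repeats) with vehicle, CUG300 (300 repeats) with vehicle, and CUG300 with CWG-cPIP, which was injected with the virus at a dose of 83 μg/kg. CWG-cPIP is a cyclic pyrrole-imidazole polyamide that binds CAG/CTG repeat DNA. Hippocampi were taken 10 days after gene transfer, and total RNA was sequenced as 1 library per mouse.

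A cytosolic ribosome holds 1 copy of nearly every ribosomal protein, and cells make these proteins in matched amounts. Their mRNAs are among the most abundant in any tissue, and most begin with a cytosine followed by a run of pyrimidines, the 5′ terminal oligopyrimidine (TOP) motif, through which the mTORC1 pathway and the RNA-binding protein LARP1 set their translation and stability. Free ribosomal proteins such as RPL5 and RPL11, which bind 5S rRNA, can also restrain the p53 inhibitor MDM2. In the hippocampus these mRNAs are found in all cell types, in cell bodies and in neuronal processes.

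Values are regularized logarithms (rlog), a log2 scale on which a difference of 1 is a doubling, and limma was run on every gene whose mean over all mice reached log2(10). Of the 84 members, 81 passed this filter, among 14867 genes tested. The 3 members under it were the paralogs Rpl10l, listed at 0 in every mouse, Rpl39l, whose rlog value was at most 0.11 in any mouse, and Rpl3l, the striated muscle form of Rpl3, at 1.95 to 2.18. A gene was called when its Benjamini-Hochberg adjusted p was under 0.05. Nothing in the labels ties mice of different groups together, the read depth of the libraries is unknown, and with whole tissue a change in the mix of cells cannot be told apart from a change of RNA per cell.

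The longest pyrimidine runs near the annotated transcription start are shown for 3 called members and for 3 reference genes, because most ribosomal protein mRNAs begin with such a run. Each line gives 30 bases in the direction of transcription, from RefSeq promoters on GRCm38.p6. Rps27l and Rpl34 have 2 listed promoters each, and the one with the longest run is shown. In every line the longest run of pyrimidines within 20 bases before to 30 bases after the start is in capitals. In Rps27l the lower-case pyrimidine stretch at the left end begins before that window. The windows lie at chr9:66946064-66946093 on the plus strand for Rps27l, chr3:130730330-130730359 on the minus strand for Rpl34 and chr11:101442226-101442255 on the plus strand for Rpl27. For Rps6 the window is chr4:86857349-86857378, for Rpl13a chr7:45128722-45128751 and for Rps27 chr3:90213631-90213660, all on the minus strand.
Rps27l: ctcctctccaCTCCTCCCCgccgcctctat
Rpl34: acccgCCCCTTCCTTTTCCTCTTCCgggga
Rpl27: cggaacgctctgTTCCTgtctgctgctcgt
Rps6: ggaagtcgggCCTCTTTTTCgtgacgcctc
Rpl13a: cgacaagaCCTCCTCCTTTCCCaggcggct
Rps27: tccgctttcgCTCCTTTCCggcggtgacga
The run is 20 bases long in Rpl34, 14 in Rpl13a, 10 in Rps6, 9 in Rps27l and Rps27, and 5 in Rpl27. Relative to the annotated start its first base lies at −17 in Rpl34, −12 in Rps27l and −7 in Rpl27. It lies at −2 in Rps27, −1 in Rps6 and 3 in Rpl13a. The runs of Rps27l and Rpl27 end before that start, so by this annotation they are not part of the mRNA. Among the 63 members with a listed promoter, 34 (54.0%) held a pyrimidine run of at least 8 bases between 20 bases before and 30 bases after the start, against 21.5% of all 27025 genes listed. The letters TTCCGG, searched on both strands of the 300-base promoter, were present in 55.6% of members and 16.7% of all genes, CTTTCC in 52.4% and 29.3%, and TATAAA in 11.1% and 15.7%. A gene was counted if any of its listed promoters matched. These are matches of letters and not measured binding.

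The first question was how ribosomal protein mRNAs stood in CUG300 mice given vehicle compared with CUG10 mice. The mean was higher in CUG300 mice for all 81 members tested, while 48.4% of all genes tested had a higher mean. The median log2 difference of the members was 0.45, with quartiles of 0.38 and 0.53 and a range from 0.11 for Rpl30 to 1.16 for Rps27l, against a median of −0.01 over all genes. Other abundant genes did not share this direction: the 3272 non-members with a mean rlog of at least 10 had a median of −0.12, and 33.5% of them were higher. limma called 4 members higher, among them Rps27l, Rpl34 and Rpl27, and 0 lower. That is 4.94% of the members, below the 7.37% of all genes that were called higher, while 3.34% of all genes were called lower and 10.7% in either direction. At an unadjusted p under 0.05, 36 members (44.4%) were higher against 16.3% of all genes, and 0 were lower against 14.2%. The groups did not overlap for 22 members (27.2%), all higher in CUG300 mice, against 18.2% of all genes, and 0 members were lower without overlap against 16.7%. These 22 were 11 genes of the large subunit, 8 of the small subunit, Rplp0 of the stalk, and the paralogs Rps27l and Rpl7l1.

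**Figure D1:**
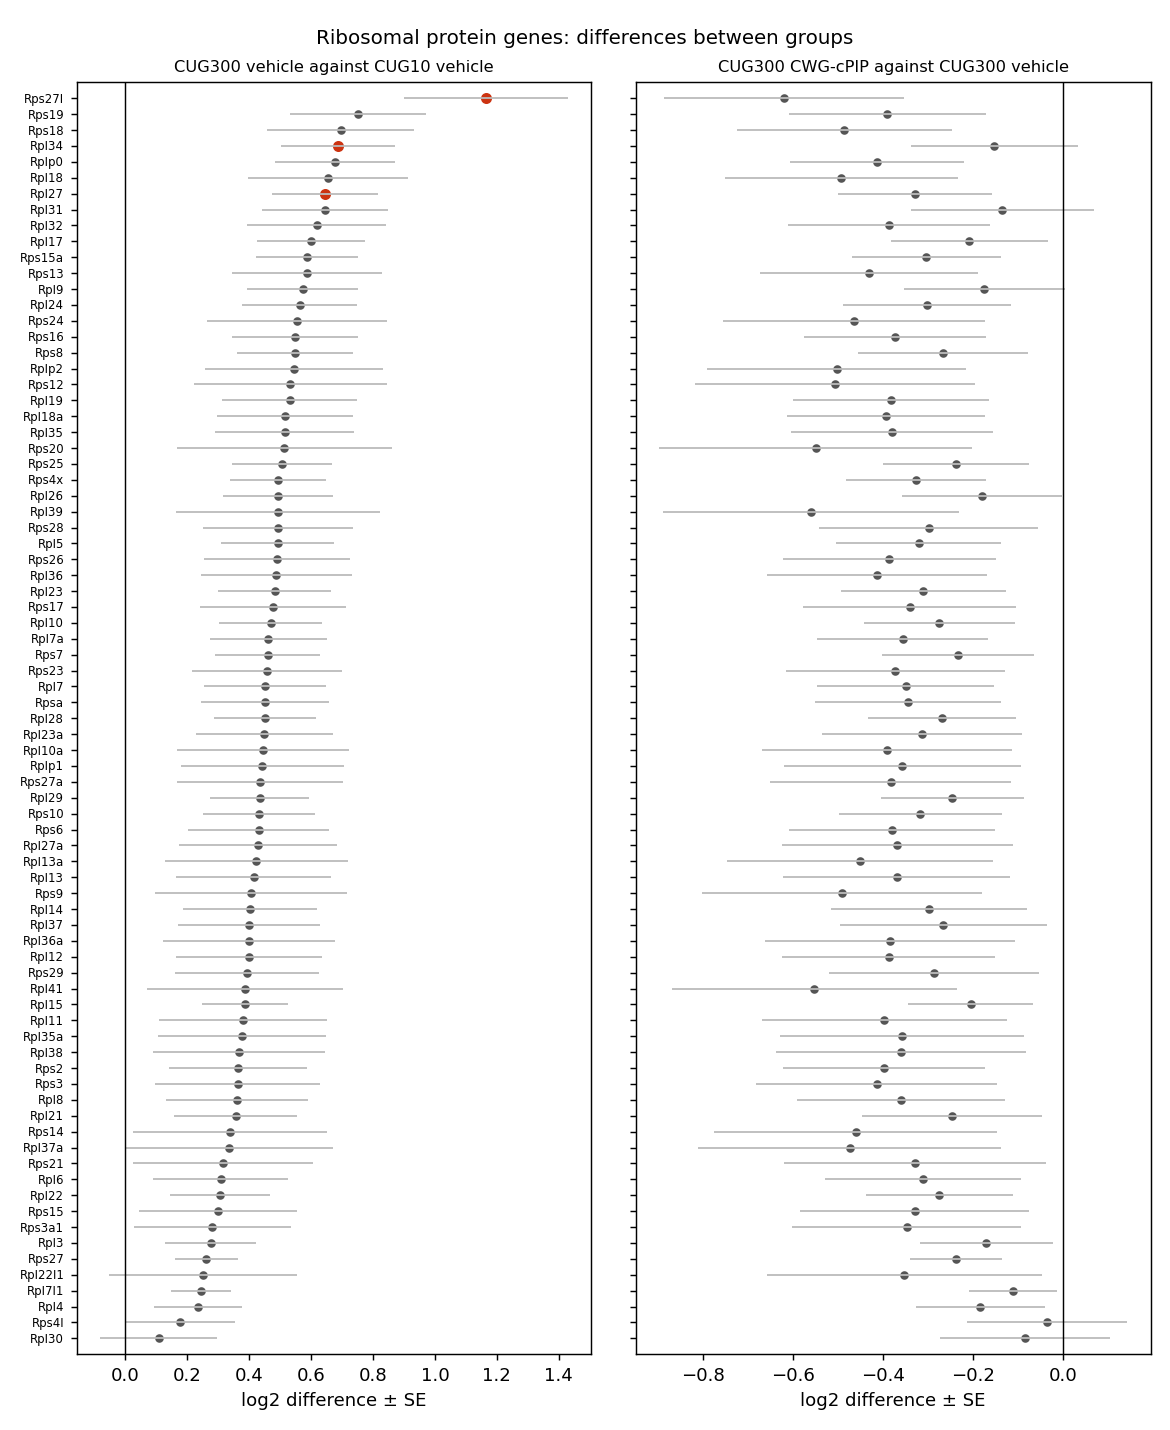
Log2 difference of 79 of the 81 members tested, with the standard error from limma as bars, for CUG300 vehicle against CUG10 vehicle mice (left) and for CUG300 mice with CWG-cPIP against those with vehicle (right), in the same order of genes. Red points on the left mark Rps27l, Rpl34 and Rpl27, which were called, and every point lies above 0 on the left (0.11 to 1.16) and below 0 on the right (−0.62 to −0.04).

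The small number of calls stood beside a wide spread between mice of the same group. The median over the 81 members was 11.99, 11.82 and 11.68 in CUG10 mice 1 to 3, 12.70, 11.78 and 12.26 in CUG300 vehicle mice, and 11.81, 11.60 and 12.25 in CWG-cPIP mice. CUG300 vehicle mouse 1 was therefore far above every CUG10 mouse, mouse 3 was above them by less, and mouse 2 lay within their range. In the CWG-cPIP group, mouse 3 stood with CUG300 vehicle mouse 3, and mice 1 and 2 lay at the level of the CUG10 mice or below it. The group means of these medians were 11.83 ± 0.15, 12.25 ± 0.46 and 11.89 ± 0.33 (SD, n = 3 each). Medians over all genes tested differed little, from 8.43 to 8.54.

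**Figure D2:**
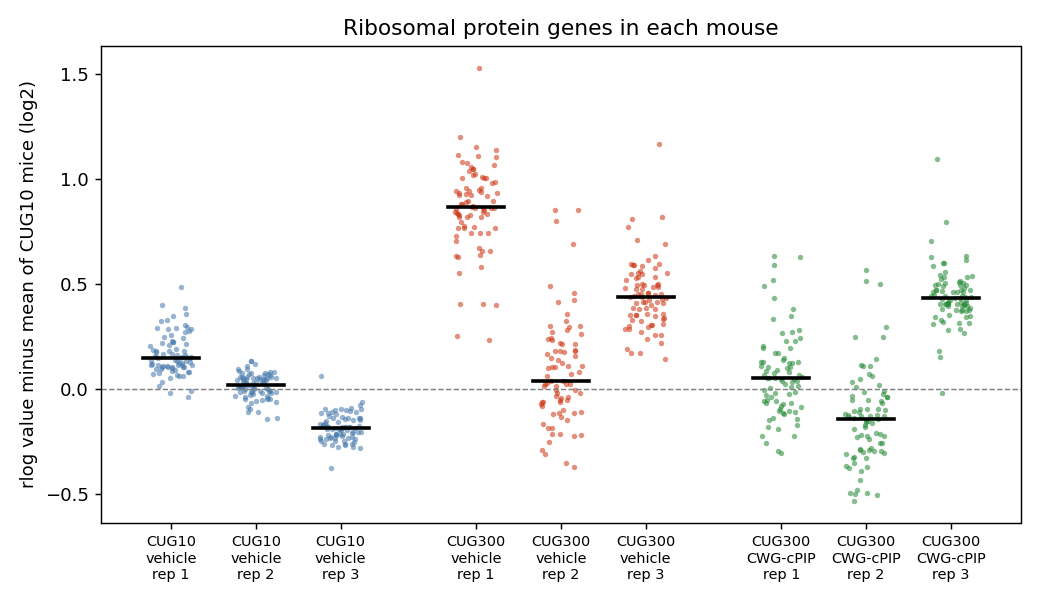
Each point is 1 of the 81 members in 1 mouse, as its rlog value minus its mean in the 3 CUG10 mice, and each black line is the median of that mouse. The medians were 0.87, 0.04 and 0.44 in CUG300 vehicle mice 1 to 3 and 0.05, −0.14 and 0.44 in CWG-cPIP mice 1 to 3.

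The members moved together from mouse to mouse. CUG300 vehicle mouse 1 held the highest of the 9 values for 77 members, with Rpl34, Rpl7l1 and Rps27 among the exceptions, and CUG300 vehicle mouse 2 was the lowest of its group for 78. CWG-cPIP mouse 3 was the highest of its group for 76 members and mouse 2 the lowest for 76. Even among CUG10 mice, mouse 1 was highest for 72 and mouse 3 lowest for 80. Over all genes, no mouse was the highest or the lowest of its group for more than 43.7%. Many mitochondrial ribosomal protein genes, Mrps6 among them, had the same highest and lowest mice in each group as most members, and others did not. When each mouse was taken as its deviation from its group mean, 1 principal component took up 92.3% of the members' variance, with loadings of 1 sign for all 81. The corresponding share for all genes tested was 48.8%. The median SD within groups was 0.32 for members and 0.18 for all genes. By group the members had 0.17 for CUG10, 0.41 for CUG300 vehicle and 0.31 for CWG-cPIP mice. All genes tested had 0.10, 0.22 and 0.14 in the same order of groups, so the order was not particular to the members. These shares are a description of 9 libraries.

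Members above all 3 CUG10 mice numbered 81 in CUG300 vehicle mouse 1, 23 in mouse 2 and 78 in mouse 3, or 100%, 28.4% and 96.3% of those tested, beside 41.1%, 35.2% and 39.2% of all genes tested. They numbered 18 in CWG-cPIP mouse 1, 4 in mouse 2, among them Rpl26, Rpl31 and Rpl34, and 79 in mouse 3. These were 22.2%, 4.94% and 97.5% of the tested members, beside 32.4%, 34% and 36.7% of all genes. The size of the difference depended on single mice: the median over the members was 0.25 without CUG300 vehicle mouse 1, with 77 of 81 still higher, and 0.65 without CUG300 vehicle mouse 2. The number of members called was 25 without CUG300 vehicle mouse 2, where 16.7% of all genes tested were called. It was 0 without CUG300 vehicle mouse 1, where 13.8% of all genes were called. In that fit 14 members had an unadjusted p under 0.05, a count given without its share over all genes.

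In the small subunit, 31 members were tested, with a median log2 difference of 0.48 between CUG300 vehicle and CUG10 mice. Rps19, needed for maturation of the small subunit and known from inherited red cell aplasia, was second only to the paralog Rps27l among all members tested. Within the small subunit its difference was the largest. Its values were 10.97, 10.62 and 10.44 in CUG10, 11.78, 11.13 and 11.37 in CUG300 vehicle and 11.02, 10.71 and 11.38 in CWG-cPIP mice. The CUG300 vehicle mice stood above the CUG10 mice without overlap, but the log2 difference of 0.75 ± 0.22 missed the threshold with an adjusted p of 0.058. Rps18, a protein of the head of the small subunit, showed 0.70 with an adjusted p of 0.089, again without overlap.

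Rps6, the subunit protein phosphorylated by S6 kinase downstream of mTORC1, had values of 12.69, 12.70 and 12.49 in CUG10, 13.46, 12.61 and 13.10 in CUG300 vehicle and 12.57, 12.40 and 13.06 in CWG-cPIP mice. CUG300 vehicle mouse 2 lay inside the range of the CUG10 mice, so these groups overlapped, and the log2 difference of 0.43 had an adjusted p of 0.23. Rpsa, the laminin receptor precursor of the small subunit, showed 0.45 (adjusted p = 0.18), Rps27a, made as a fusion with ubiquitin, 0.44 (adjusted p = 0.30), and Rps3a1 0.28 (adjusted p = 0.48). All 3 overlapped between the groups.

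In the large subunit, 43 members were tested with a median log2 difference of 0.44. Of these, 2 (4.65%) were called, both higher, beside 7.37% of all genes called higher. Rpl34 was at 8.55, 8.02 and 7.90 in CUG10 mice, 8.95, 9.01 and 8.57 in CUG300 vehicle mice and 8.79, 8.66 and 8.62 in CWG-cPIP mice. All 6 CUG300 mice exceeded the 3 CUG10 mice, although CUG300 vehicle mouse 3 exceeded CUG10 mouse 1 only narrowly. The log2 difference was 0.69 ± 0.18, with an adjusted p of 0.047. Rpl27 was at 10.74, 10.36 and 10.14 in CUG10, 11.31, 10.90 and 10.96 in CUG300 vehicle and 10.75, 10.56 and 10.88 in CWG-cPIP mice. Its CUG300 vehicle mice were above all the others, with a log2 difference of 0.65 ± 0.17 and an adjusted p of 0.046.

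The 5S particle genes gave 0.49 for Rpl5, without overlap of the groups (adjusted p = 0.11), and 0.38 for Rpl11, with overlap (adjusted p = 0.37). Rpl10, added late in the maturation of the large subunit, gave 0.47 without overlap (adjusted p = 0.098). Rpl3, at the peptidyl transferase centre, gave 0.28 and Rpl4, which lines the exit tunnel, 0.23, both with overlap. The short Rpl41 had the highest level per kilobase of coding sequence among the tested members with a coding length, followed by Rplp1. The coding part is 138 of 509 transcript bases in Rpl41 and 342 of 499 in Rplp1, so this rank depends on the use of coding length. The rlog values of Rpl41 were 12.70, 12.66 and 12.49 in CUG10, 13.64, 12.32 and 13.04 in CUG300 vehicle and 12.32, 12.08 and 12.94 in CWG-cPIP mice. CUG300 vehicle mouse 2 fell below the CUG10 mice here, and the log2 difference of 0.39 ± 0.32 had an adjusted p of 0.44.

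The smallest difference of all members was that of Rpl30, whose yeast counterpart is known to bind its own transcript. It was at 8.57, 8.65 and 8.52 in CUG10, 8.98, 8.33 and 8.75 in CUG300 vehicle and 8.52, 8.36 and 8.92 in CWG-cPIP mice. The CUG300 vehicle mice lay on both sides of the CUG10 mice, and the log2 difference was 0.11 ± 0.19 (adjusted p = 0.73). Per kilobase of coding sequence, Rpl30, Rpl34 and Rpl26 stood at 10.16, 10.06 and 8.87 on the log2 scale, among the lowest tested members. For each of them a near-identical pseudogene copy is among the listed genes. Reads may have been split between such copies, so the levels and differences of these members are uncertain.

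The stalk of the large subunit, which recruits elongation factors, is built from Rplp0, Rplp1 and Rplp2. Of the 3, limma called 0, with 1 higher at an unadjusted p under 0.05, beside 16.3% of all genes. Rplp0 was at 12.44, 12.42 and 12.15 in CUG10, 13.20, 12.70 and 13.15 in CUG300 vehicle and 12.57, 12.28 and 12.95 in CWG-cPIP mice. All CUG300 vehicle mice exceeded the CUG10 mice, and the log2 difference of 0.68 ± 0.19 had an adjusted p of 0.055. Rplp1 and Rplp2 showed 0.44 and 0.55 with overlap of the groups and adjusted p-values of 0.28 and 0.23. Rplp0 is also widely used as a reference gene for quantitative PCR.

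**Figure D3:**
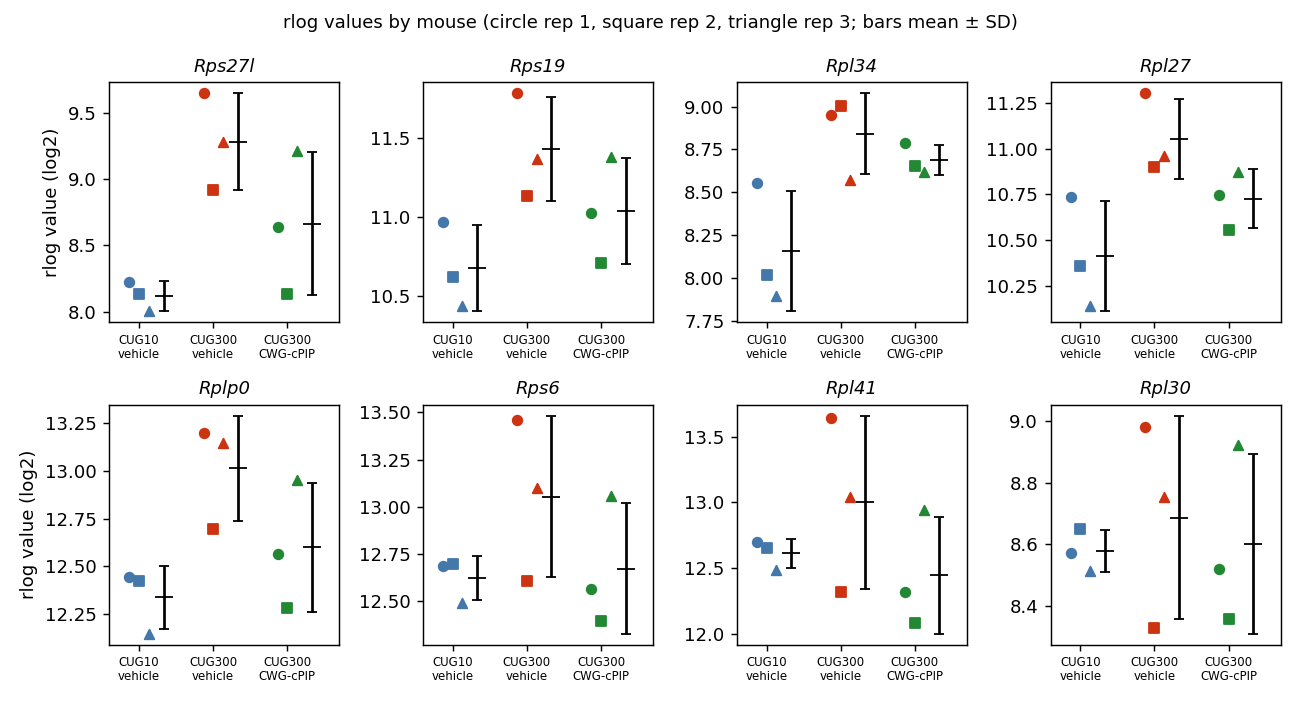
rlog values of 8 members in each mouse, with group means and SD (n = 3) as bars; blue is CUG10 vehicle, red CUG300 vehicle and green CUG300 CWG-cPIP, and each panel has its own axis. In Rps27l, Rps19, Rpl27, Rplp0, Rps6, Rpl41 and Rpl30 mouse 2 was the lowest of both CUG300 groups. In Rpl34 CUG300 vehicle mouse 2 was the highest of its group.

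The paralogs, copies of ribosomal protein genes of which some can take the place of the common form, differed most among themselves. Rps27l, a close relative of Rps27 and a known target of p53, had the largest difference of all members. Its values were 8.22, 8.13 and 8.001 in CUG10, 9.65, 8.92 and 9.28 in CUG300 vehicle and 8.64, 8.13 and 9.21 in CWG-cPIP mice. All CUG300 vehicle mice were far above the CUG10 mice, and the CWG-cPIP mice spread from the CUG10 level in mouse 2 to the CUG300 vehicle level in mouse 3. The log2 difference of CUG300 vehicle from CUG10 mice was 1.16 ± 0.27, with an adjusted p of 0.032.

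Rps27 itself was listed at only 4.50 to 4.99, the lowest level per kilobase of coding sequence among the same tested members, while Rps27rt, a near-identical retrogene copy outside the rule, was at 11.05 to 12.34. Reads of these copies may have been split by the counting, so the level of Rps27 is uncertain. Rps27rt showed a log2 difference of 0.71 ± 0.19 between CUG300 vehicle and CUG10 mice, with an adjusted p of 0.048. The difference of Rps27l exceeded that of Rps27 by 0.90 and that of Rps27rt by 0.45 on the log2 scale. Both had an exact permutation p of 0.1, two-sided, which is the smallest that 3 against 3 mice allow, and an adjusted p of 0.38 over 15 such tests.

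The other paralogs had small differences. Rpl22l1, which can replace Rpl22, showed 0.25 beside 0.31 for Rpl22, and Rpl7l1, a relative of Rpl7 that works in the making of the large subunit, 0.25 beside 0.45. For both pairs the difference between partners had an exact permutation p of at least 0.6. Rps4l, annotated as a transcribed processed pseudogene, showed 0.18 beside 0.49 for Rps4x, and the difference between partners of −0.32 was again at the smallest possible exact p of 0.1 (adjusted p = 0.38).

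The second question was how CWG-cPIP changed these values in CUG300 mice. The mean was lower with CWG-cPIP than with vehicle for all 81 members, against 50.6% of all genes tested, with a median log2 difference of −0.35 and a range from −0.62 to −0.04. limma called 0 members, with a smallest adjusted p of 0.48, and it called 0% of all genes in this comparison. At an unadjusted p under 0.05, 2 members were lower, Rps27 and Rps27l, which is 2.47% against 3.6% of all genes. The groups did not overlap for 2 members, Rpl27 and Rps27, which is 2.47% against 3.5% of all genes. This comparison shares the CUG300 vehicle mice with the first, so a high value in those mice enters both with opposite sign. The median was −0.14 without CUG300 vehicle mouse 1, −0.57 without CUG300 vehicle mouse 2, −0.22 without CWG-cPIP mouse 2 and −0.53 without CWG-cPIP mouse 3.

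Among single members, Rps27l had the largest difference with CWG-cPIP, at −0.62 ± 0.27 (adjusted p = 0.48), followed by Rpl39 at −0.56 and Rpl41 at −0.55. Rpl39 lies in the exit tunnel of the large subunit. Next came the small subunit genes Rps20 at −0.55 and Rps12 at −0.51, and the stalk gene Rplp2 at −0.50. In all 6, CWG-cPIP mouse 3 lay above CUG300 vehicle mouse 2, so the groups overlapped. Rpl34 at −0.15 and Rpl31 at −0.14 were among the 6 closest to 0, with Rpl7l1 at −0.11, Rpl30 at −0.09 and Rps4l at −0.04. The 3 stalk genes had −0.41, −0.36 and −0.50, Rps6 −0.38, Rpl5 −0.32 and Rpl11 −0.40. None of these reached an adjusted p under 0.05. The median was −0.37 for the small and −0.33 for the large subunit.

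CWG-cPIP-treated CUG300 mice were last compared with CUG10 mice. Here 66 members (81.5%) had a higher and 15 a lower mean, against 50.1% of all genes with a higher one, with a median log2 difference of 0.11, quartiles of 0.02 and 0.19 and a lowest value of −0.17 for Rpl41. With every mouse centred on its median over all genes, 51 were higher, so the direction of the smaller differences depended on the scaling. limma called 0 members and 0% of all genes. At an unadjusted p under 0.05, 3 members were higher, Rpl31 and Rpl34 among them, which is 3.7% against 8.12% of all genes. The groups did not overlap for 3 members, Rpl26 and Rpl34 among them, all higher with CWG-cPIP, which is again 3.7% against 13.4% of all genes.

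Rpl31 was at 11.48, 10.89 and 10.62 in CUG10, 11.83, 11.68 and 11.40 in CUG300 vehicle and 11.58, 11.51 and 11.42 in CWG-cPIP mice. Apart from CUG10 mouse 1, which reached the CUG300 mice, the CUG10 values were lower than all others. The log2 difference of CWG-cPIP from CUG10 mice was 0.51 ± 0.20 for Rpl31 (adjusted p = 0.33) and 0.53 ± 0.18 for Rpl34 (adjusted p = 0.27). Rps27l showed 0.54 ± 0.27, Rpl9 0.40 and Rpl17 0.39. At the other end stood Rpl41, then Rpl37a at −0.14, Rps14 at −0.12, Rpl22l1 at −0.10, Rps9 at −0.09 and Rpl39 at −0.07.

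Features of the genes that the choice by symbol did not use were set beside the values. The members lie on 19 chromosomes, with 14 on chromosome 7. In 30 of the 84 (35.7%) a small nucleolar RNA gene lies inside the gene, against 1.27% of 21951 protein-coding genes, and the 58 such RNAs reach 5 in Rpl4. At 95% identity over 80% of the coding sequence, 73 members had annotated pseudogene copies, 546 in all and as many as 56 for Rpl21, of which 11 are listed in the values. Reads that such copies share with the member could have been split between them. The median log2 difference between CUG300 vehicle and CUG10 mice was 0.46 in the 41 tested members with 5 or more pseudogene copies and 0.43 in the 39 with fewer. It was 0.46 with and 0.45 without a small nucleolar RNA inside, 0.46 with a pyrimidine run of at least 8 bases and 0.43 with a shorter one, and 0.45 with and 0.46 without TTCCGG in the promoter. In every split the ranges of both sides overlapped.

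Ribosomal components outside the rule had values like those of the members in CUG300 vehicle against CUG10 mice. Fau, made as a fusion with a ubiquitin-like protein, showed a log2 difference of 0.58, the small subunit scaffold Rack1, listed as Gnb2l1, 0.62, and the paralog Rpl36al 0.61. Of the 4 genes in this list limma called 0, and at an unadjusted p under 0.05 all 4 were higher, beside 16.3% of all genes. Among 7 other genes whose transcripts carry a TOP motif the median was 0.48. Beside 7.37% of all genes, 2 of these were called higher. These were Tpt1, which encodes a translationally controlled tumour protein, at 0.65 (adjusted p = 0.044), and Snhg1, a host transcript of small nucleolar RNAs, at 1.23 (adjusted p = 0.038). Naca, a chaperone subunit at the exit tunnel, showed 0.39 without a call.

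Other parts of the translation apparatus had smaller medians. Of 78 mitochondrial ribosomal protein genes, 1 was called higher, Mrps6 with a difference of 1.20 (adjusted p = 0.034), with a median of 0.16. Mrpl32 showed 0.55 (adjusted p = 0.051). Of 40 ribosome biogenesis genes, 2 were called higher, the snoRNP core gene Nop58 at 0.67 and the helicase Ddx21 at 0.53, with a median of 0.13. Fbl, the rRNA methyltransferase fibrillarin, showed 0.58 and Ncl, nucleolin, 0.11, both without a call.

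Of 35 initiation factor genes, 4 were called higher, Eif2s2 at 0.69, Pabpc1 at 0.56, Eif4a1 at 0.54 and Eif3d at 0.46, with a median of 0.22. The start site selection factors Eif1 and Eif1ax showed 0.26 and 0.13 without a call. Eif3j1 had a log2 difference of −2.69 without a call (adjusted p = 0.20), and it was listed either at 4.51 to 4.62 or above 8, with both kinds of value in the CUG10 and in the CWG-cPIP group. Its near-identical copy Eif3j2 may have shared its reads, so this value is uncertain. limma called 0 of 10 elongation and termination factor genes, with a median of 0.16. Their count at an unadjusted p under 0.05 was 2 higher and 1 lower. Eef1a1, which brings aminoacyl-tRNA to the ribosome, showed 0.39, its neuronal form Eef1a2 −0.14 and the release factor Gspt2 −0.43. In the mTORC1 pathway with Larp1, 1 of 12 genes was called higher, Eif4ebp1, which encodes a repressor of cap-dependent initiation, at 1.38 (adjusted p = 0.031). The median of this list was −0.05, with Mtor at −0.40, Rptor at −0.34 and Tsc1 at −0.57, none called. limma called 0 of 6 genes of ribosome rescue, with 1 higher at an unadjusted p under 0.05 and a median of 0.17. Nemf, Hbs1l and Pelo showed 0.30, 0.20 and 0.18, and Ltn1, the ligase that marks stalled nascent chains, −0.16. In these lists 0 genes were called lower in CUG300 vehicle mice, and with CWG-cPIP 0 were called in either comparison, as for all genes. In CUG300 vehicle against CUG10 mice, 7.37% of all genes tested were called higher. At an unadjusted p under 0.05, 16.3% of them were higher and 14.2% lower.

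Genes outside the ribosome also differed between these groups, and the order of the mice within a group matched that of the members only in part. The mean rlog of 8 interferon-stimulated genes was 8.41, 9.24 and 8.72 in CUG10, 12.49, 12.02 and 12.54 in CUG300 vehicle and 11.71, 9.73 and 12.50 in CWG-cPIP mice, and 8 of 8 were called higher in CUG300 vehicle mice. For 6 markers of monocytes and macrophages it was 5.62, 5.72 and 5.43, then 7.84, 7.96 and 8.44, then 7.21, 6.28 and 8.21, with 4 of 6 called higher. In both lists CWG-cPIP mouse 3 was the highest of its group and mouse 2 the lowest, as for the members. CUG300 vehicle mouse 2, low for most members, was lowest of its group for the interferon-stimulated genes but not for the monocyte markers. CUG300 vehicle mouse 1, the highest of its group for most members, was lowest for the monocyte markers, and CUG10 mouse 1, also highest for most members, was lowest of its group for the interferon-stimulated genes.

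Markers of microglia ranged from 9.42 to 9.79 in CUG10, 9.98 to 10.20 in CUG300 vehicle and 9.72 to 10.00 in CWG-cPIP mice, with 2 of 6 called higher. Those of T and NK cells ranged from 4.22 to 4.62, 5.81 to 6.38 and 4.54 to 6.36, with 4 of 5 tested called higher. For B cells, whose marker Ms4a1 was under the filter, the ranges were 3.41 to 3.47, 3.81 to 4.90 and 3.49 to 4.09, with 1 of 3 called higher.

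Among resident cells, astrocyte markers ranged from 11.70 to 11.93, 12.06 to 12.33 and 12.17 to 12.40 in the same order of groups, with 2 of 5 called higher. Markers of hippocampal neurons, present at high levels in every mouse as the labelled tissue calls for, had means of 12.25, 12.31 and 12.37 in CUG10, 11.85, 12.38 and 11.89 in CUG300 vehicle and 12.41, 12.36 and 12.15 in CWG-cPIP mice. The neuronal mean was lowest in the 3 mice in which the members were highest, and limma called 0 of 8 neuronal markers, with 3 lower at an unadjusted p under 0.05. Oligodendrocyte markers lay between 12.42 and 13.83 and endothelial markers between 8.10 and 8.89 over the 9 mice, with 0 called and with 0 and 2 higher at an unadjusted p under 0.05. Beside these marker counts, 7.37% of all genes were called higher. At the unadjusted threshold 16.3% of all genes were higher and 14.2% lower.

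Choroid plexus markers ranged widely, from 6.44 to 9.67 in CUG10, 8.70 to 9.93 in CUG300 vehicle and 6.59 to 6.77 in CWG-cPIP mice. Between CUG300 vehicle and CUG10 mice 0 of 6 were called, also at an unadjusted p under 0.05. No marker in these lists was at 0 in all mice. The precursor rRNA gene Rn45s was at 14.17, 13.41 and 13.42, then 13.74, 13.51 and 13.46, then 13.39, 13.32 and 13.97. It was highest in CUG10 mouse 1 and CWG-cPIP mouse 3, and in each group the mouse with the highest median over the members was also the highest for Rn45s. What part the cell mix, the interferon response or the amount of rRNA left in a library has in the values of the ribosomal protein genes was not tested.

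**Figure D4:**
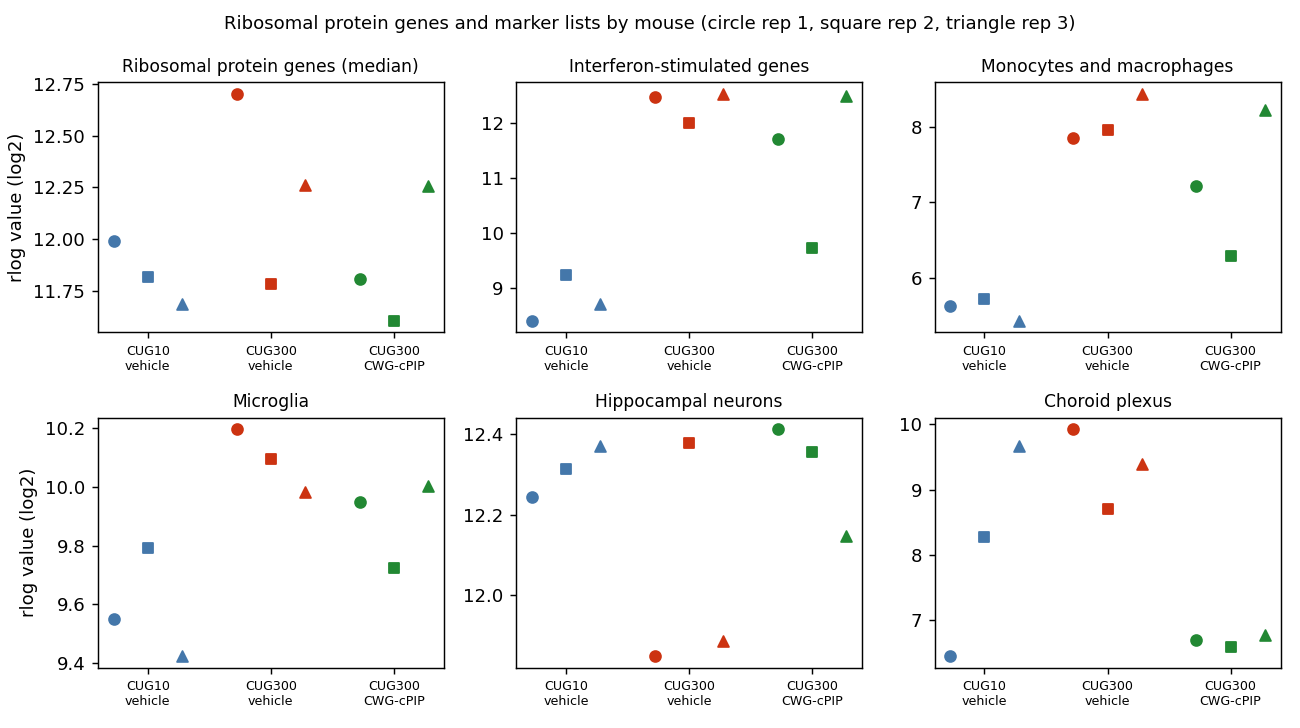
Median rlog of the 81 members and mean rlog of 5 marker lists in each mouse, each panel with its own axis; blue is CUG10 vehicle, red CUG300 vehicle and green CUG300 CWG-cPIP. The 3 mice with the highest members (12.25 to 12.70) had the lowest neuronal means (11.85 to 12.15).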

How the data were processed

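Hippocampal total RNA of 9 mice was sequenced with a directional kit. Per the submitters' processing notes, reads went through Trim Galore 0.6.6, STAR 2.7.9a and RSEM 1.3.3 on the mm10 build. With DESeq2 1.36.0 the authors made the deposited log2 values, regularized logarithms scaled by size factors, in which low counts are shrunk toward the gene mean. Options of this step, annotation and strand use are not given in the sources used here, and depth is unknown. The paper describes spike-in scaling for its off-target analysis and does not mention it for these mice.

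Genes were fitted with limma 3.58.1 in R 4.3.3, with 1 mean per group, pooled variance with a trend and two-sided tests, adjusted over 14867 genes within each comparison. The procedure was tested on simulated data. Coordinates, small nucleolar RNAs and pseudogenes came from GENCODE M21 on GRCm38, copies from blastn 2.17.0 and promoters from RefSeq. Named members were the 6 largest and 6 smallest differences of each comparison, the stalk, 5S particle, fusion and paralog genes, Rps6, Rpsa and Rpl41, and members under the filter. In the other translation lists, the first 2 genes, the 2 with the largest difference and called genes were named. Rpl27, Rpl13a, Rpl26, Rps27rt, Rpl21, Eif3j2 and Rn45s were named after their values were seen. Members and lists were chosen with earlier results of these data known. A few members and list genes are left unreported. Symbols turned into dates, 27 in all, were kept in the tests and not named. Alternatives were median centering, quantile scaling, other filters, limma without trend or robust, only the groups compared, a replicate block and leaving out each mouse.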

Additional observations from a re-analysis of the deposited data

How the results depend on the processing

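Of the alternatives tried, none changed the sign of the median log2 difference of the members in CUG300 vehicle against CUG10 mice or with CWG-cPIP against vehicle. limma called 0 members in both comparisons of CWG-cPIP mice under every one. At an unadjusted p under 0.05 the most members it counted as lower after CWG-cPIP was 54, without CUG300 vehicle mouse 2, where 0 of all genes were called. The share of all genes at the unadjusted threshold is not given for the alternatives, so their unadjusted counts cannot be set against it. The number of members called in CUG300 vehicle against CUG10 mice, 4 as reported, was 2 with median centering, 13 with quantile scaling and 2 without a filter on low values, where 12.9%, 10.3% and 6.91% of all genes were called. Leaving out 1 mouse gave 0 to 25 calls. It was 0 without any 1 of the CUG10 mice or CUG300 vehicle mouse 3, where at most 2 of all genes were called, without CWG-cPIP mouse 1, where 1.78% were, and without CUG300 vehicle mouse 1, where 13.8% were. It was 8 without CWG-cPIP mouse 3 and 25 without CUG300 vehicle mouse 2, where 15.5% and 16.7% of all genes were called. In the fits with 0 calls, 12 to 35 members had an unadjusted p under 0.05. Over these 9 fits Rps27l and Rpl27 were each called in 3 and Rpl34 in 1, with differences of 0.98 to 1.35, 0.51 to 0.81 and 0.56 to 0.89. The cause was not tested.

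With the replicate number as a block, 9 members and 10.2% of all genes were called. The numbers are not known to pair the mice. Deviations of same-numbered mice correlated from −0.50 to 0.41 and those of differently numbered mice from −0.52 to 0.46. With 3 mice per group these correlations cannot decide whether the numbers pair them. The median of CWG-cPIP against CUG10 mice ran from −0.05 without CWG-cPIP mouse 3 to 0.24 without CWG-cPIP mouse 2.

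Some small differences changed sign without 1 mouse. In CUG300 vehicle against CUG10 mice, Rpl30 ran from −0.038 to 0.29 and Rpl22l1 from −0.091 to 0.56, with the lowest values without CUG300 vehicle mouse 1. With CWG-cPIP against vehicle, Rpl30 ran from −0.26 to 0.060 and Rps4l from −0.15 to 0.079, also 0.035 for Rpl30 without CWG-cPIP mouse 2 and 0.078 for Rps4l without CUG300 vehicle mouse 1. In CWG-cPIP against CUG10 mice, the lowest values came without CWG-cPIP mouse 3 and the highest without CWG-cPIP mouse 2: Rpl41 from −0.41 to 0.017, Rpl37a from −0.40 to 0.038, Rps14 from −0.36 to 0.063, Rpl22l1 from −0.31 to 0.062, Rps9 from −0.38 to 0.12 and Rpl39 from −0.34 to 0.15. Rps9 was at 0.0009 without CWG-cPIP mouse 1. The depth behind each value is unknown.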
